A study of Mus musculus with 12 samples.

Results

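The genes described here are 10 genes of the endoplasmic reticulum (ER): the chaperones Hspa5, Hsp90b1, Calr, Canx and Pdia4, and the unfolded protein response and ER-associated degradation genes Dnajb9, Xbp1, Atf4, Ddit3 and Edem1. They were taken by gene name from a scaled count table of 55866 gene symbols and a TPM table of 55372, and all 10 were found in both. Ddit3 stood under 2 entries in the scaled count table, 1 of them at 0 in all 12 libraries, and the other was used. The mice were 2 months old. All carried RiboTag, an allele that puts a tagged ribosomal protein into cells with Cre, together with the i75-Rod-Cre transgene, in which a rhodopsin promoter drives Cre in rods. The Abca4 knockout mice (Abca4Ko; Abca4-/-) also lacked Abca4, a transporter of rod outer segment discs that clears retinoid by-products, and the controls were Abca4+/+. Tissue was frozen after cycloheximide perfusion, which holds ribosomes on their messages. RNA was sequenced from the total retinal lysate (retina) and from the messages bound to tagged ribosomes, isolated by translating ribosome affinity purification (rod TRAP), with 3 libraries for each genotype in each fraction.

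The ER lumen is where secreted and membrane proteins fold. Chaperones hold the unfolded chain, lectins of the calnexin cycle retain glycoproteins until they are folded, and disulfide isomerases join their cysteines. When unfolded protein accumulates, the sensors IRE1, PERK and ATF6 start the unfolded protein response: IRE1 splices Xbp1 mRNA, PERK slows translation and thereby raises translation of Atf4 mRNA, and cleaved ATF6 enters the nucleus. These factors switch on chaperone genes, genes for degradation of ER proteins and, under prolonged stress, Ddit3. Rods make large amounts of rhodopsin, a glycosylated membrane protein that folds in the ER of the inner segment. Splicing of Xbp1 and translation of Atf4 are not measured by a total per gene.

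Chaperone genes are known to share the ER stress element, a promoter motif bound by NF-Y and by ATF6 or XBP1. The motif is CCAAT and CCACG separated by 9 bases, and it was searched on both strands in the 250 bases before and the 50 bases after each start in RefSeq (GRCm38.p6), where all 10 genes were found. It was present in 39 of 32851 promoters (0.119%) and in 4 of the 10 genes: Hspa5, Hsp90b1, Calr and Canx. The matches are shown because these 4 genes are among the 5 called higher in rod TRAP in both genotypes below. Each stretch runs 5′ to 3′ on the strand of its gene, with the motif in capitals and 20 flanking bases, and in Calr and at the second match of Hsp90b1 the motif reads on the opposite strand:
Hspa5 (chr2:34772005-34772063, plus strand): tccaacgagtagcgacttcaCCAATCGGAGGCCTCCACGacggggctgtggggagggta
Canx (chr11:50325780-50325838, minus strand): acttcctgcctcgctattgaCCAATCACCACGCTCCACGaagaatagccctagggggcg
Calr (chr8:84847055-84847113, minus strand): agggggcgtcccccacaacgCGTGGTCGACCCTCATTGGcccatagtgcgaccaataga
Hsp90b1 (chr10:86705513-86705676, minus strand): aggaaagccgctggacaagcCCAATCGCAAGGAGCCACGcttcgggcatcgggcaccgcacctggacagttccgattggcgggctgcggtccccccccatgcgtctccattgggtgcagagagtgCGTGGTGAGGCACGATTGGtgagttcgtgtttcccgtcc

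The first base of the match lay 65 bases before the start in Hspa5, 145 in Canx and 162 in Calr, and the matches of Hsp90b1 began 212 and 107 bases before it. Hsp90b1 was the one gene of the 10 with 2 matches. The windows of Pdia4, Dnajb9, Xbp1, Atf4, Ddit3 and Edem1 did not hold these letters at this spacing. For Edem1 the window (chr6:108828391-108828690) lay inside the gene, whose annotated first base is 108824045. Taken alone, CCAAT was in 37.4% and CCACG in 32.8% of all promoters.

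Before the values, 3 facts of the libraries matter. The deposited scaled counts had been brought to a common total within each fraction, between 17096515 and 17097707 in rod TRAP and between 17860761 and 17862326 in retina. The Abca4Ko libraries of replicate 3 held 23.5% (rod TRAP) and 21.3% (retina) of the mean Abca4 count of the controls, against 0.349% to 0.958% in the other 4 Abca4Ko libraries. Of 10 rod markers, all 10 were called higher in rod TRAP in both genotypes, and their summed level was 174767 to 191879 CPM in rod TRAP and 81517 to 119999 CPM in retina. The 7 Müller glia markers summed to 132 to 204 CPM in rod TRAP and 3818 to 6103 CPM in retina, and the 7 cone markers to 281 to 438 CPM and 1109 to 1698 CPM. None of these markers was at 0 in every rod TRAP library.

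Levels were compared between genes in TPM, which accounts for transcript length. In control rod TRAP, Calr was highest with 477 ± 37.2 TPM (SD, n = 3), followed by Hsp90b1 with 447 ± 54.0 TPM and Atf4 with 369.9 ± 14.1 TPM. Canx had 297 ± 58.5 TPM, Hspa5 251.5 ± 38.7 TPM, Pdia4 121 ± 12.8 TPM and Ddit3 82.9 ± 3.15 TPM. Xbp1 had 37.2 ± 2.83 TPM, Dnajb9 13.2 ± 1.90 TPM and Edem1 4.07 ± 0.153 TPM. Neighbours in this order overlapped between Calr and Hsp90b1, Atf4 and Canx, and Canx and Hspa5. The levels thus spanned from the luminal calcium-binding lectin Calr to Edem1, a lectin that delivers misfolded glycoproteins to degradation.

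In control retina the order was different. Atf4 led with 399 ± 29.6 TPM and Calr followed with 379 ± 24.7 TPM, and these overlapped. Ddit3, which encodes the transcription factor CHOP, was next with 138 ± 22.3 TPM, ahead of Hspa5 with 105 ± 20.6 TPM and Canx with 90.4 ± 28.1 TPM. Hsp90b1, which ranked 2 in control rod TRAP, ranked 8 in control retina with 53.5 ± 13.1 TPM, below Pdia4 (60.2 ± 2.57 TPM) and Xbp1 (60.03 ± 6.23 TPM). In Abca4Ko rod TRAP, Calr (519 ± 65.2 TPM), Hsp90b1 (456 ± 94.1 TPM) and Atf4 (385 ± 27.4 TPM) again came before the rest. In Abca4Ko retina, Atf4 (380.3 ± 14.3 TPM) and Calr (375 ± 15.5 TPM) led, and Hsp90b1 ranked 6 with 93.1 ± 26.8 TPM. The 10 genes together summed to 1980 to 2447 TPM in the 6 rod TRAP libraries and to 1280 to 1486 TPM in the 6 retina libraries, with no overlap.

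**Figure D1:**
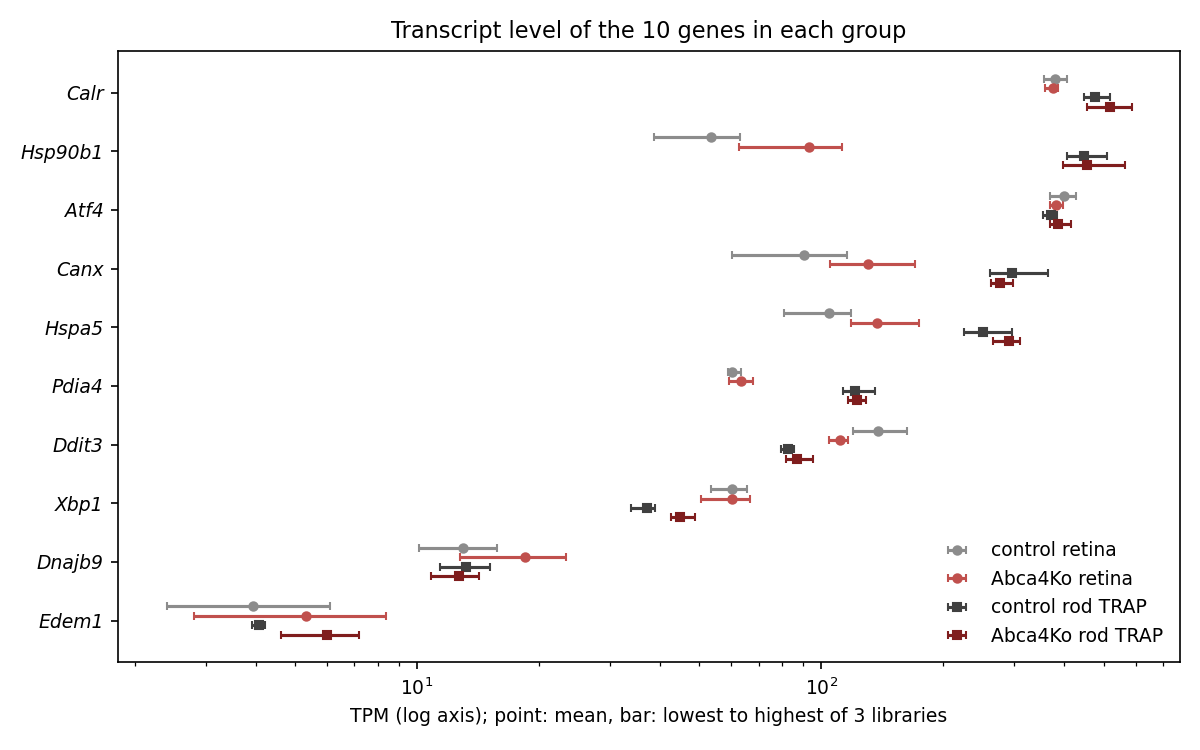
TPM (log axis) of the 10 genes in each of the 4 groups, with the mean of 3 libraries as a point and the lowest to highest library as a bar. Hsp90b1 lies at 406 to 508 TPM in control rod TRAP and at 38.5 to 62.9 TPM in control retina, while Atf4 and Dnajb9 overlap between these groups.

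The first comparison asks which of these messages are enriched on rod ribosomes, and it set the rod TRAP libraries against the retina libraries of the same genotype. In such bulk samples fewer cells of a type and less RNA per cell cannot be told apart. The fractions also differ in the kind of RNA, ribosome-bound against total, and this was not separated from cell type. All 5 chaperone genes were called higher in rod TRAP in control mice and in Abca4Ko mice. Of the 5 genes of the unfolded protein response and degradation, Edem1 was called higher and Xbp1 lower in control mice, and none was called in Abca4Ko mice. Thus 6 of the 10 genes were called higher and 1 lower in control mice, where 36.6% of all genes tested were called higher and 38.8% lower. In Abca4Ko mice 5 were called higher and 0 lower by limma, where 30.4% of all genes were called higher and 33.7% lower, and 5 of the 10 genes had an unadjusted p under 0.05, against 67.2% of all genes. The median log2 fold change of the 10 genes was 0.67 in control and 0.52 in Abca4Ko, against −0.03 and 0.004 over all genes tested. For the 10 rod markers the median was 1.37 in control (lowest 1.03, highest 4.65) and 1.42 in Abca4Ko (lowest 1.12, highest 3.72). Values below are normalised CPM, the scaled counts brought to CPM with factors of the trimmed mean of M values (TMM), and tests are limma with adjustment over all genes. Where fractions are said below not to overlap, the share of all genes with such a separation was not counted. A separation is therefore not shown to be particular to these genes. Under the authors' scaling alone the median of all genes moved to −0.62 in control and −0.49 in Abca4Ko, so directions here are relative to the middle of all genes. Under it, 4 of the 10 genes were called higher and 3 lower in each genotype. Of all 16286 genes tested in control, 3415 were then called higher and 9549 lower. Of all 16036 in Abca4Ko, 2282 were called higher and 7814 lower.

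**Figure D2:**
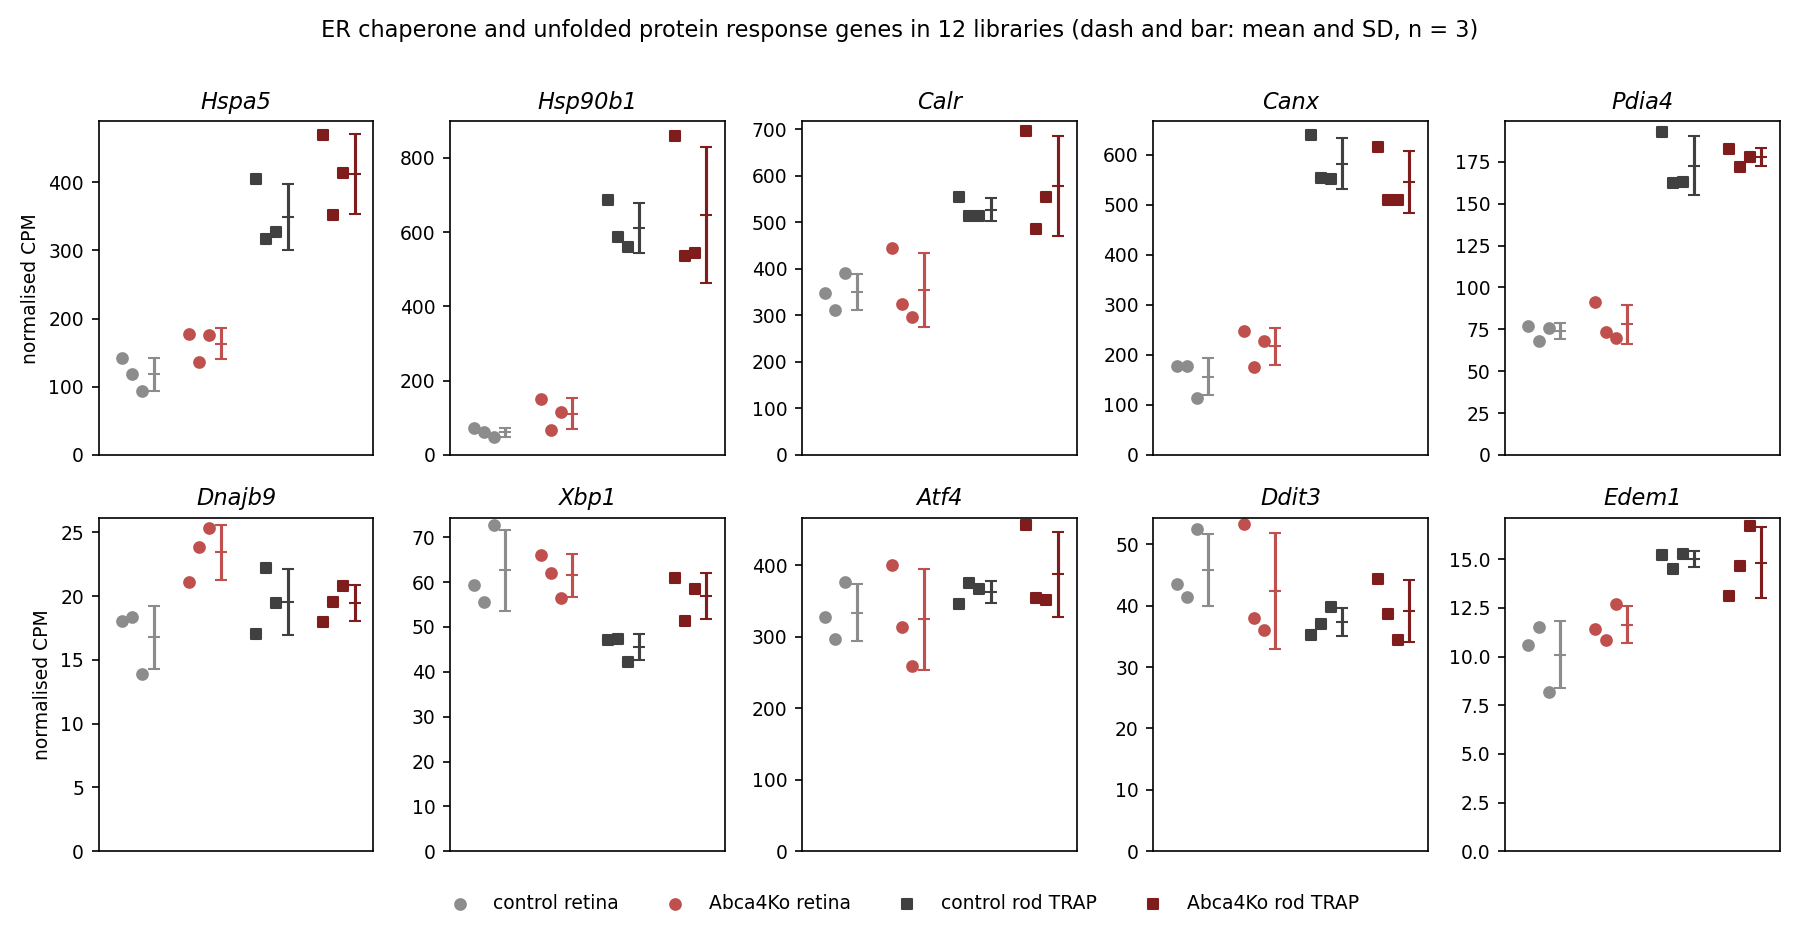
Normalised CPM of each gene in the 12 libraries (points, replicates 1 to 3 from left to right) with the group mean and SD (dash and bar, n = 3). The rod TRAP squares of Hspa5, Hsp90b1, Calr, Canx and Pdia4 lie above all retina circles, and those of Atf4 do not separate from them. The share of all genes separated between fractions was not counted.

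Hsp90b1, the ER paralogue of HSP90 (GRP94), differed most of the 10. It had 686, 587 and 561 normalised CPM in control rod TRAP and 72.7, 60.5 and 48.5 in control retina. In Abca4Ko mice it had 858, 537 and 543 in rod TRAP and 151, 66.9 and 115 in retina. The fractions did not overlap in either genotype. The log2 fold change was 3.42 (SE 0.15, limma adjusted p = 8.86e-10) in control, a 10.7-fold higher value in rod TRAP, and 2.58 (SE 0.29, limma adjusted p = 1.69e-05) in Abca4Ko.

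Canx, the membrane-bound lectin calnexin, had 640, 553 and 550.4 normalised CPM in control rod TRAP and 177, 178 and 114 in control retina. In Abca4Ko mice the values were 616, 508 and 509 in rod TRAP and 248, 175 and 227 in retina. All rod TRAP libraries were higher than all retina libraries. The log2 fold change was 2.00 (SE 0.16, limma adjusted p = 1.66e-07) in control and 1.34 (SE 0.18, limma adjusted p = 6.09e-05) in Abca4Ko.

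Hspa5 encodes BiP, the HSP70 chaperone of the lumen that also holds the stress sensors inactive. It had 405, 316 and 327 normalised CPM in control rod TRAP and 142, 118 and 94.4 in control retina. In Abca4Ko mice it had 469, 352 and 414 in rod TRAP and 177, 137 and 175 in retina. Here too no retina library reached a rod TRAP library. The log2 fold change was 1.66 (SE 0.16, limma adjusted p = 6.31e-07) in control and 1.33 (SE 0.17, limma adjusted p = 5.21e-05) in Abca4Ko.

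Pdia4, the disulfide isomerase ERp72, had 193, 162 and 163 normalised CPM in control rod TRAP and 76.9, 68.3 and 76.1 in control retina. Its Abca4Ko values were 183, 172 and 178 in rod TRAP and 91.3, 73.3 and 69.6 in retina, again without overlap. The log2 fold change was 1.31 (SE 0.12, limma adjusted p = 6.38e-07) in control and 1.19 (SE 0.15, limma adjusted p = 4.29e-05) in Abca4Ko. Calr, the soluble lectin calreticulin, showed the smallest difference of the 5 chaperones. It had 555, 513 and 514 normalised CPM in control rod TRAP against 347, 313 and 390 in control retina, and 696, 486 and 554 against 446, 324 and 296 in Abca4Ko. The fractions were apart in both genotypes. On the log2 scale rod TRAP exceeded retina by 0.68 (SE 0.12, limma adjusted p = 0.000196) in control and by 0.71 (SE 0.20, limma adjusted p = 0.0103) in Abca4Ko. The calls of Calr did not hold under the authors' scaling alone, where its log2 fold change was 0.04 (limma adjusted p = 0.752) in control and 0.17 (limma adjusted p = 0.354) in Abca4Ko. In Abca4Ko it was also lost without retina replicate 2 (0.59, limma adjusted p = 0.0574) and without both libraries of replicate 3 (0.61, limma adjusted p = 0.0957).

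Among the other 5 genes the fractions differed less. Edem1 had 15.2, 14.5 and 15.3 normalised CPM in control rod TRAP and 10.6, 11.5 and 8.17 in control retina, and 13.1, 14.7 and 16.7 against 11.4, 10.8 and 12.7 in Abca4Ko, without overlap in either. Its log2 fold change was 0.65 (SE 0.16, limma adjusted p = 0.00285) in control and 0.33 (SE 0.18, limma adjusted p = 0.121) in Abca4Ko. The call in control was lost under the authors' scaling alone (0.03, limma adjusted p = 0.898) and in log2(TPM + 1) (0.11, limma adjusted p = 0.733). The value in Abca4Ko changed sign under the authors' scaling, to −0.19 (limma adjusted p = 0.427).

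Xbp1, whose spliced message encodes the transcription factor of the IRE1 branch, was the one gene of the 10 called lower in rod TRAP. It had 47.0, 47.4 and 42.3 normalised CPM in control rod TRAP and 59.4, 55.6 and 72.8 in control retina. In Abca4Ko the fractions overlapped, with 60.9, 51.2 and 58.4 in rod TRAP and 66.0, 62.01 and 56.5 in retina. The log2 fold change was −0.36 (SE 0.14, limma adjusted p = 0.0288) in control and −0.11 (SE 0.14, limma adjusted p = 0.509) in Abca4Ko. The call in control was lost without any 1 of the 3 control rod TRAP libraries, with limma adjusted p of 0.0607 to 0.117. In Abca4Ko Xbp1 was called lower under the authors' scaling (−0.65, limma adjusted p = 0.00216).

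Atf4, the transcription factor of the PERK branch, had 346, 375 and 368 normalised CPM in control rod TRAP and 327, 298 and 376 in control retina, and 457, 355 and 351 against 399.8, 314 and 259 in Abca4Ko. The fractions overlapped in both genotypes. Its log2 fold change was 0.21 (SE 0.12, limma adjusted p = 0.133) in control and 0.27 (SE 0.19, limma adjusted p = 0.249) in Abca4Ko, and both changed sign under the authors' scaling, where the control value was −0.43 (limma adjusted p = 0.00331) and the Abca4Ko value −0.27 (limma adjusted p = 0.124). Ddit3 had 35.2, 36.96 and 39.7 normalised CPM in control rod TRAP and 43.5, 41.4 and 52.5 in control retina, which were apart, and in Abca4Ko 44.4, 38.6 and 34.4 against 53.3, 38.03 and 36.02, which overlapped. Its log2 fold change was −0.20 (SE 0.14, limma adjusted p = 0.195) in control and −0.10 (SE 0.18, limma adjusted p = 0.6496) in Abca4Ko, and in log2(TPM + 1) it passed the threshold as lower in both, at −0.72 (limma adjusted p = 0.000456) and −0.35 (limma adjusted p = 0.0370). It was also called lower in both under the authors' scaling.

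Dnajb9, a cochaperone of BiP, had 17.02, 22.2 and 19.5 normalised CPM in control rod TRAP and 18.04, 18.3 and 13.9 in control retina, which overlapped. In Abca4Ko it had 17.95, 19.5 and 20.8 in rod TRAP against 21.1, 23.8 and 25.3 in retina, all lower. Its log2 fold change was 0.30 (SE 0.16, limma adjusted p = 0.105) in control, where it changed sign to −0.33 (limma adjusted p = 0.0992) under the authors' scaling. In Abca4Ko it was −0.26 (SE 0.16, limma adjusted p = 0.165), and it was called lower there under the authors' scaling (−0.79, limma adjusted p = 0.00563) and without retina replicate 1 (−0.42, limma adjusted p = 0.0371).

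**Figure D3:**
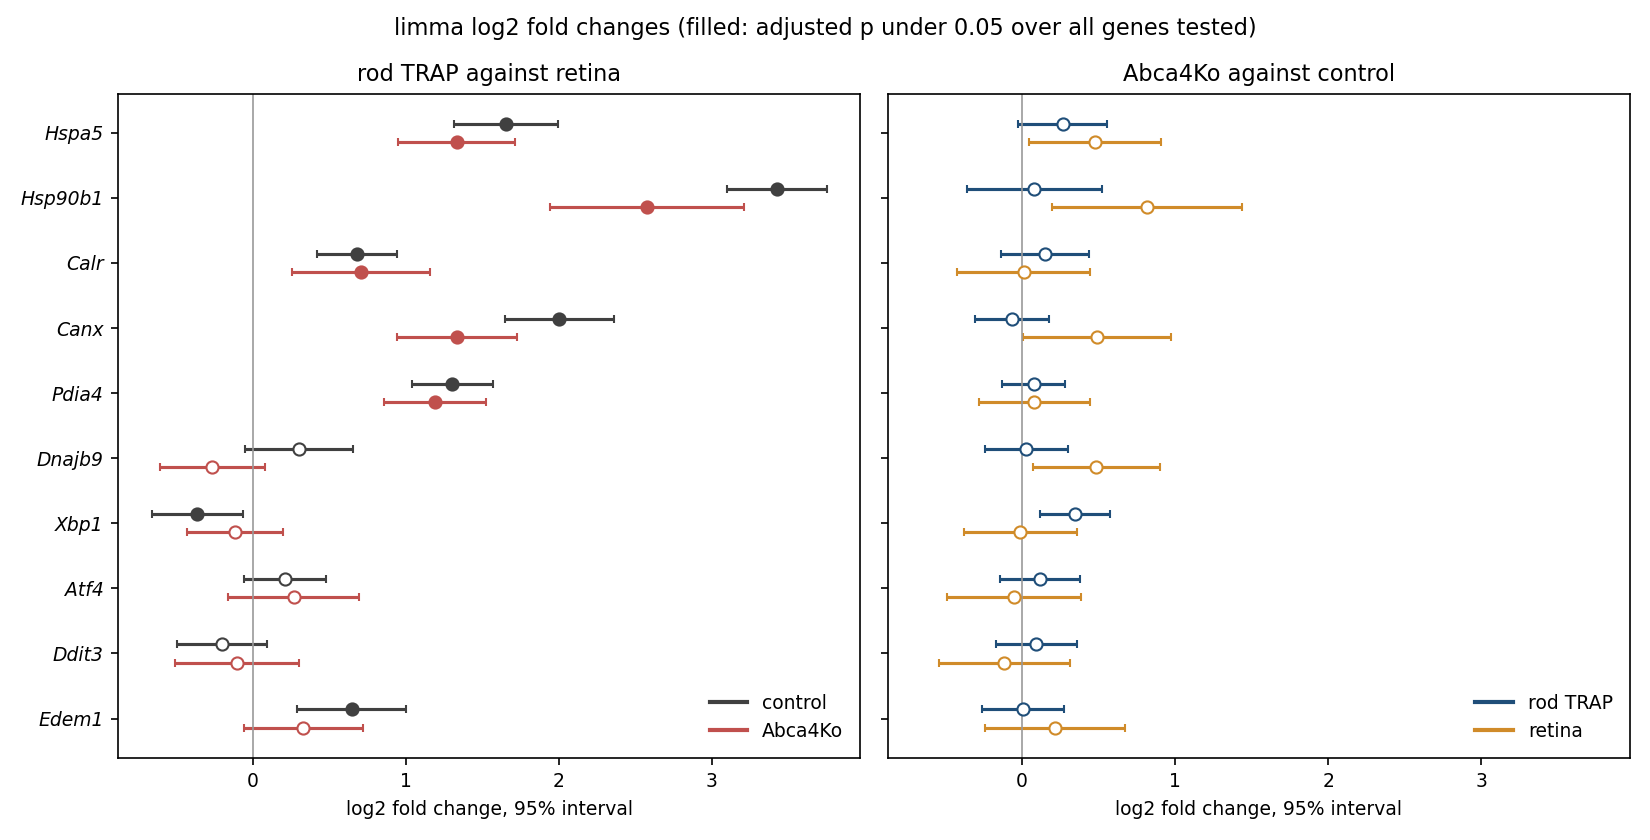
limma log2 fold changes with 95% intervals for rod TRAP against retina (left, by genotype) and for Abca4Ko against control (right, by fraction), filled where the adjusted p was under 0.05. The 5 chaperone genes are filled on the left in both genotypes, and no gene is filled on the right. Under the authors' scaling alone Calr and Edem1 are no longer called on the left, and Atf4, Dnajb9 (control) and Edem1 (Abca4Ko) change sign.

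To see whether loss of Abca4 was accompanied by a change in ER stress genes, Abca4Ko was compared with control within each fraction. None of the 10 genes was called in rod TRAP or in retina. The deleted gene Abca4 was not called by this test either. Its log2 fold change was −5.79 (SE 1.81, limma adjusted p = 0.415) in rod TRAP and −5.60 (SE 1.59, limma adjusted p = 0.3998) in retina. Its Abca4Ko replicate 3 libraries held 23.5% (rod TRAP) and 21.3% (retina) of the control mean. The SE of the 10 genes was 0.09 to 0.19 in rod TRAP and 0.16 to 0.28 in retina, so Abca4 is no gauge for them. With 3 libraries a group, a count of 0 still does not show that these genes were unchanged. In rod TRAP the smallest limma adjusted p of the 10 was 0.220, where 1.09% of all genes tested were called, and 1 of the 10 had an unadjusted p under 0.05, against 10.4% of all genes. In retina the smallest limma adjusted p was 0.3998, where 0.106% of all genes were called, and 4 of the 10 had an unadjusted p under 0.05, against 12.0% of all genes. The counts of 0 were the same under all 15 alternatives in each fraction, which include leaving out the Abca4Ko library of replicate 3. The intervals given below are those of 3 libraries a group.

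In rod TRAP, Xbp1 was the gene with an unadjusted p under 0.05. It had 60.9, 51.2 and 58.4 normalised CPM in Abca4Ko and 47.0, 47.4 and 42.3 in control, so that all Abca4Ko libraries were higher. Such a separation, higher in Abca4Ko, was seen in 6.94% of all genes tested. The log2 fold change was 0.35 (95% interval 0.12 to 0.58, limma adjusted p = 0.220), and 0.34 (limma adjusted p = 0.329) without the Abca4Ko library of replicate 3.

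Hspa5 had 469, 352 and 414 normalised CPM in Abca4Ko rod TRAP against 405, 316 and 327 in control, which overlapped, and its log2 fold change was 0.27 (95% interval −0.03 to 0.56, limma adjusted p = 0.528). For the other chaperones in rod TRAP the values were 0.08 for Hsp90b1 (95% interval −0.36 to 0.52), 0.15 for Calr (−0.14 to 0.44), −0.07 for Canx (−0.31 to 0.18) and 0.08 for Pdia4 (−0.13 to 0.28). For the stress factors they were 0.12 for Atf4 (−0.14 to 0.38) and 0.09 for Ddit3 (−0.17 to 0.36), and for Dnajb9 and Edem1 0.03 (−0.24 to 0.30) and 0.01 (−0.26 to 0.27). The limma adjusted p of these 9 genes was 0.528 to 0.992. Abca4Ko replicate 1 held the highest value of its group for 8 of the 10 genes, all but Dnajb9 and Edem1. That library also had 25117 scaled counts of the rod gene Rp1, against 51593 to 58535 in the other 5 rod TRAP libraries, and 0.186% of its counts on mitochondrial genes, against 0.0472% to 0.0623%. Without it Hsp90b1 was at −0.17 (limma adjusted p = 0.237), Calr at −0.02, Atf4 and Ddit3 at −0.03 and Xbp1 at 0.27 (limma adjusted p = 0.0830). The 7 cone markers summed to 364.7 to 438 CPM in Abca4Ko rod TRAP and 281 to 301 CPM in control, with 1 of the 7 called, and their part in these values was not tested.

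In retina, the 4 genes under an unadjusted p of 0.05 were all higher in Abca4Ko. Hsp90b1 had 151, 66.9 and 115 normalised CPM in Abca4Ko and 72.7, 60.5 and 48.5 in control, with overlap through Abca4Ko replicate 2. Its log2 fold change was 0.82 (95% interval 0.20 to 1.43, limma adjusted p = 0.3998). Canx had 248, 175 and 227 against 177, 178 and 114, with a log2 fold change of 0.49 (0.01 to 0.97, limma adjusted p = 0.410). Canx thus overlapped as well, and its lowest value was in control replicate 3. Hspa5 had 177, 137 and 175 against 142, 118 and 94.4, with a log2 fold change of 0.48 (0.05 to 0.91, limma adjusted p = 0.3998). Dnajb9 had 21.1, 23.8 and 25.3 against 18.04, 18.3 and 13.9, with a log2 fold change of 0.49 (0.07 to 0.90, limma adjusted p = 0.3998). Of the 4, Dnajb9 alone had groups that did not overlap, which held for 10.1% of all genes tested in this direction.

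Control retina replicate 3 held the lowest retina value of Hspa5, Hsp90b1, Canx, Dnajb9 and Edem1. Without it the log2 fold changes were 0.33 for Hspa5, 0.67 for Hsp90b1, 0.29 for Canx and 0.37 for Dnajb9, each with a limma adjusted p of 0.934. Without the Abca4Ko library of replicate 3 they were 0.41, 0.74, 0.44 and 0.42, with limma adjusted p of 0.648 to 0.652. Values that moved with these genes are those of the rod genes Rp1 and Cnga1. Rp1 had 5463, 4936 and 4520 scaled counts in Abca4Ko retina and 4176, 3863 and 2506 in control, and Cnga1 had 8193, 4594 and 6919 against 4654, 3800 and 3004. The other 8 rod markers had an unadjusted p over 0.05, and the 10 together summed to 81517 to 119999 CPM in Abca4Ko retina and 98320 to 117060 CPM in control. Mitochondrial genes took 2.75% to 5.70% of the counts in Abca4Ko retina and 1.84% to 2.33% in control. Their part in the result was not tested.

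The remaining genes in retina had log2 fold changes of 0.01 for Calr (95% interval −0.43 to 0.45), 0.08 for Pdia4 (−0.28 to 0.44), −0.01 for Xbp1 (−0.38 to 0.36), −0.05 for Atf4 (−0.49 to 0.39), −0.12 for Ddit3 (−0.54 to 0.31) and 0.21 for Edem1 (−0.24 to 0.67). Their limma adjusted p was 0.638 to 0.983. The stress factors Atf4 and Ddit3 and the transcript of Xbp1 thus had point values below 0 in retina, of which those of Atf4 and Xbp1 were above 0 without Abca4Ko replicate 3 and without control replicate 3.

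The difference between the genotype effects in rod TRAP and in retina was tested as an interaction over all 12 libraries. No gene of the 10 was called by limma, where 0.00579% of all genes tested were called, and 2 of the 10 had an unadjusted p under 0.05, against 11.3% of all genes. The log2 interaction was −0.76 (SE 0.36, limma adjusted p = 0.448) for Hsp90b1, −0.58 (SE 0.26, limma adjusted p = 0.423) for Canx and −0.48 (SE 0.22, limma adjusted p = 0.431) for Dnajb9, where a negative value stands for a smaller Abca4Ko effect in rod TRAP. Xbp1 had the highest value, 0.33 (SE 0.19, limma adjusted p = 0.514). Without both Abca4Ko libraries of replicate 3 no gene of the 10 was called either.

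The rest of the pathway was followed in 6 lists that hold 86 other genes. In control, 47 of 84 tested were called higher in rod TRAP and 12 lower, against 36.6% and 38.8% of all genes. In Abca4Ko 47 of 85 were called higher and 9 lower, against 30.4% and 33.7% of all genes. Under the authors' scaling the splits of the lists became 27 higher and 39 lower in control and 19 higher and 23 lower in Abca4Ko. Without both Abca4Ko libraries of replicate 3 the Abca4Ko split was 33 and 5 of 83, against 3372 and 2344 of 13150 over all genes. The median log2 fold change of the lists was 0.44 in control, against −0.03 for all genes, and −0.21 against −0.62 under the authors' scaling. Over all genes tested, the authors' scaling gave 3415 higher and 9549 lower of 16286 in control. In Abca4Ko it gave 2282 higher and 7814 lower of 16036. The counts by list below are relative to the middle of all genes and stand against the 36.6% higher and 38.8% lower of all genes in control. Each is followed by its count under the authors' scaling alone. Under that scaling more of all genes were called lower than higher.

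Of the 20 further luminal chaperones, cochaperones and disulfide isomerases, 13 were called higher and 1 lower in control (7 and 7 under the authors' scaling), with a median log2 fold change of 0.66. Dnajc3, a BiP cochaperone that also inhibits PERK, had 67.5 to 84.8 normalised CPM in control rod TRAP and 9.92 to 14.2 in control retina, a log2 fold change of 2.63 (limma adjusted p = 1.11e-08). Hspa13, a microsomal HSP70, had 39.6 to 43.5 against 8.17 to 13.02 (2.01, limma adjusted p = 2.25e-07). Erp29, a luminal protein related to disulfide isomerases, was the 1 called lower, with 37.7 to 43.3 against 49.3 to 62.3 (−0.38, limma adjusted p = 0.0210). Of the 6 genes for sensors and their proteases, 4 were called higher and 0 lower (3 and 2 under the authors' scaling), with a median of 0.91. The largest were Atf6, the membrane-bound sensor (192 to 199.996 normalised CPM against 34.7 to 54.8, log2 fold change 2.15, limma adjusted p = 6.92e-08), and Mbtps2, the site-2 protease that releases it (20.9 to 27.3 against 6.19 to 8.40, log2 fold change 1.71, limma adjusted p = 9.67e-07).

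Of 17 genes of ER-associated degradation tested, 11 were called higher and 2 lower in control (5 and 7 under the authors' scaling), with a median of 0.50. Edem3, a mannosidase that marks misfolded glycoproteins, had 155 to 174 normalised CPM in control rod TRAP and 14.6 to 21.1 in control retina, a log2 fold change of 3.20 (limma adjusted p = 1.18e-09). Its relative Edem2 went the other way, with 16.2 to 17.6 against 26.5 to 28.96 (−0.64, limma adjusted p = 0.000741). Sel1l, the adaptor of the HRD1 ubiquitin ligase, was higher (202 to 234 against 60.5 to 93.3, log2 fold change 1.54, limma adjusted p = 1.14e-06). Herpud1, a stress-induced partner of that ligase, was lower (39.5 to 49.6 against 68.3 to 93.5, log2 fold change −0.75, limma adjusted p = 0.000463).

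The list of ATF4 and CHOP targets with the eIF2 alpha phosphatase held more genes called lower than higher, with 2 of 14 tested called higher and 7 lower in control (1 and 12 under the authors' scaling) and a median log2 fold change of −0.55. Phgdh, the first enzyme of serine synthesis, had 0.143 to 0.213 normalised CPM in control rod TRAP and 8.27 to 18.8 in control retina (−4.21, limma adjusted p = 1.68e-08), and Nupr1, a stress-induced nuclear protein, had 0.213 to 0.787 against 9.37 to 35.8 (−4.19, limma adjusted p = 5.73e-07). All 7 Müller glia markers were also called lower in rod TRAP, and their part in this result was not tested. Phgdh and Nupr1 were near the floor in rod TRAP, so the size of their fall depends on the offset. With log2(CPM + 2) it was −2.68 for Phgdh and −2.93 for Nupr1. Phgdh passed the filter through its retina libraries and was too low to be tested by genotype in rod TRAP. The 2 called higher were Vldlr, a lipoprotein receptor (699.9 to 761 against 80.7 to 125, log2 fold change 2.89, limma adjusted p = 2.92e-09), and Atf3, a stress-induced transcription factor (16.5 to 24.7 against 9.85 to 11.5, log2 fold change 0.98, limma adjusted p = 0.000177). The call of Atf3 was lost under the authors' scaling (0.35, limma adjusted p = 0.0756).

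Of 12 genes of the calnexin cycle and N-glycan transfer, 8 were called higher and 0 lower in control (5 and 5 under the authors' scaling), with a median of 0.56. Uggt1, the folding sensor that returns glycoproteins to calnexin, had 155 to 182 normalised CPM in control rod TRAP and 36.8 to 65.7 in control retina (1.76, limma adjusted p = 1.53e-06), and Stt3b, a catalytic subunit of oligosaccharyltransferase, had 205 to 228 against 66.1 to 97.8 (1.46, limma adjusted p = 1.04e-06). Of 15 genes of the translocon and signal peptidase, 9 were called higher and 2 lower (6 and 6 under the authors' scaling), with a median of 0.45. The membrane proteins Sec62 and Sec63, which assist the translocon, were highest, at 231 to 240 against 26.03 to 37.8 (2.96, limma adjusted p = 1.43e-09) and 183 to 199.6 against 22.5 to 29.4 (2.88, limma adjusted p = 1.17e-09). The small translocon subunits Sec61g and Ssr4 were lower, at 12.4 to 15.3 against 17.4 to 23.6 (−0.53, limma adjusted p = 0.0105) and 17.5 to 23.4 against 23.96 to 37.9 (−0.50, limma adjusted p = 0.0240). The call of Ssr4 was lost without control rod TRAP replicate 1 or 2, and so was that of Erp29 above, and Sec61g lost its call without replicate 1 (limma adjusted p = 0.0506).

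By genotype, none of the 86 genes was called by limma in rod TRAP (82 tested, 5 under an unadjusted p of 0.05, smallest limma adjusted p 0.131), in retina (86 tested, 9 under 0.05, smallest 0.3998) or in the interaction (86 tested, 11 under 0.05, smallest 0.407). Of the genes named from the lists, the 5 with the highest log2 fold changes between fractions in control had these log2 fold changes by genotype in retina: Edem3 0.70, Sec62 0.69, Vldlr 0.50, Sec63 0.61 and Dnajc3 0.73. In rod TRAP these 5 had −0.24, −0.02, −0.14, −0.09 and 0.02. The control retina libraries enter both the fraction and the retina comparison, so these sets of values are not independent.

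**Figure D4:**
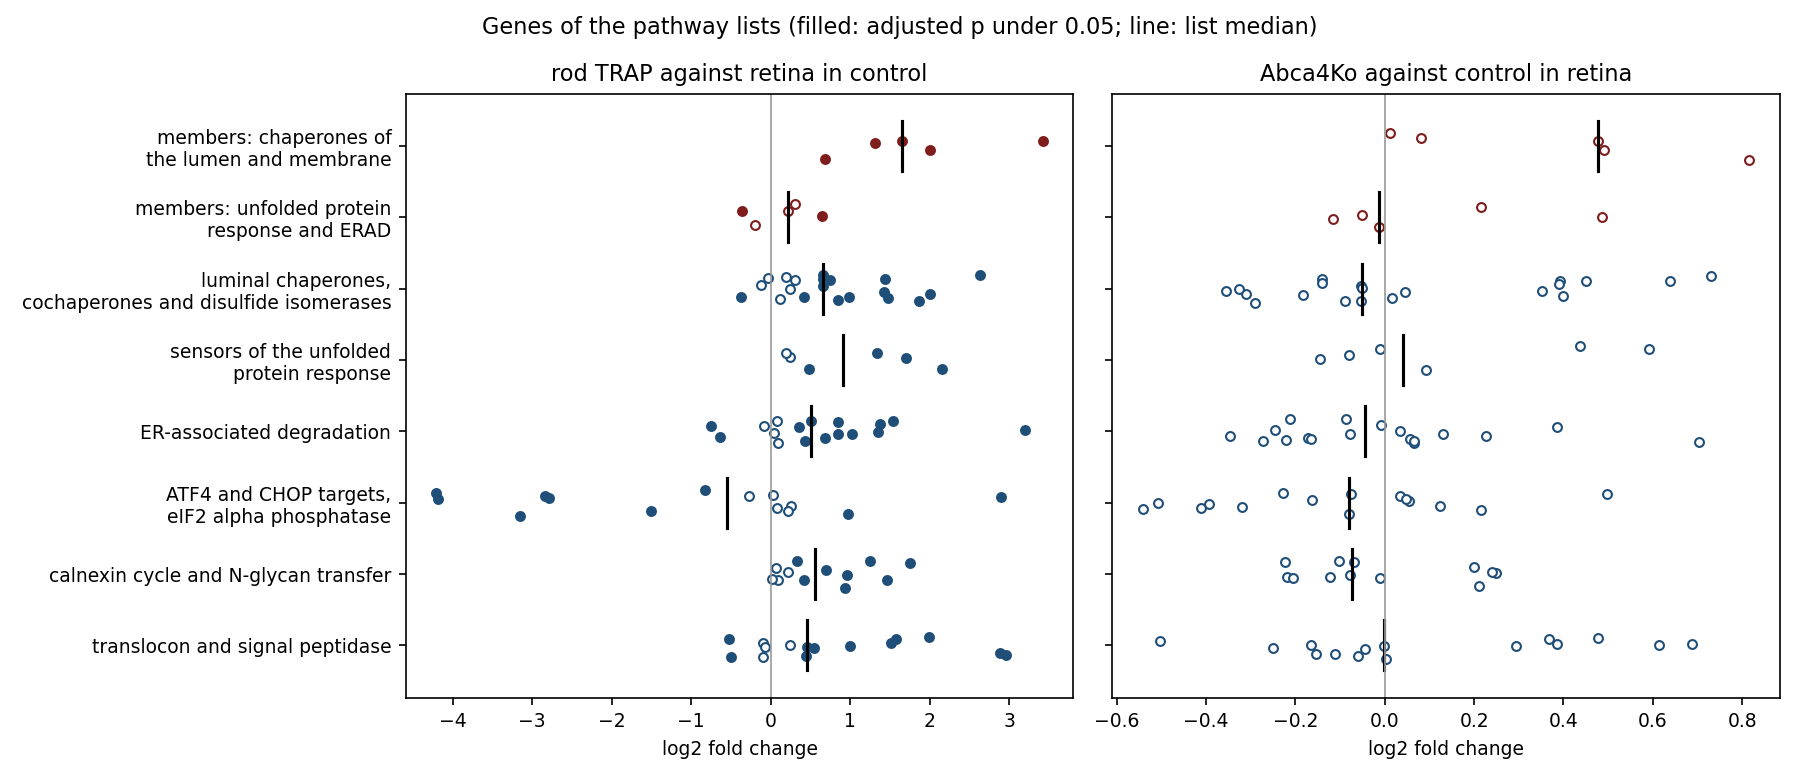
log2 fold change of each gene of the pathway lists for rod TRAP against retina in control (left) and Abca4Ko against control in retina (right), filled where the limma adjusted p was under 0.05, with the list median as a line and the 10 genes in red at the top. The list of ATF4 and CHOP targets has a median of −0.55 on the left, where the other 5 pathway lists lie between 0.45 and 0.91, and no gene is filled on the right. Under the authors' scaling alone the medians of 3 of these 5 lists fall below 0, with the median of all genes at −0.62.

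Other genes with the ER stress element were called in both directions between fractions. Of the 37 symbols with the motif, 16 besides the 4 genes above were tested in control, and 7 were called higher, 7 lower and 2 not, with a median log2 fold change of 0.05. Over all genes tested 36.6% were called higher and 38.8% lower. Called higher were Pan2, Pdia6, Dnajc3, Creld2, Syvn1, Ero1b and Hnrnpa3, and lower Adcy3, Calr4, Zfp57, Spats2l, Acacb, Tdrd9 and Xlr3b. None of the 7 called lower had enough scaled counts to be tested by genotype in rod TRAP. They could pass the filter here only with their retina libraries, where they were high. Their direction, and with it the median, was thus set in part by the filter. In Abca4Ko the counts were 6 higher and 6 lower of 15, against 30.4% and 33.7% of all genes, and the 6 lower were among the same 7 genes. By genotype none of 9 was called by limma in rod TRAP (1 under an unadjusted p of 0.05) and none of 18 in retina (4 under 0.05). Over all genes 10.4% in rod TRAP and 12.0% in retina had an unadjusted limma p under 0.05, and 1.09% and 0.106% were called.

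Across the 12 libraries, the genes most like Hspa5 in log2 normalised CPM among 17272 others were Pdia3, another disulfide isomerase of the ER (Pearson r 0.996), Asah1, the lysosomal acid ceramidase (0.992), Hspd1, the mitochondrial HSP60 (0.991), Utp6, a ribosome assembly factor (0.9904), and Uimc1, a DNA repair protein (0.9903). Of the other 9 genes described here, Hsp90b1 ranked 19 (r 0.986), Canx 73 (0.982) and Pdia4 1516 (0.953). Edem1 and Calr followed with r 0.885 and 0.865, and Atf4 (0.454), Dnajb9 (0.127), Ddit3 (−0.505) and Xbp1 (−0.585) came after. These are descriptions over 12 libraries that fall into 2 fractions, so the points share their fraction, and no test was made.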

How the data were processed

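Retinal lysate and rod TRAP RNA came from 3 numbered libraries for each genotype and fraction, per the labels, and p-values measure the spread between these libraries. The authors deposited scaled counts, which are a score: each library was multiplied to a common total within its fraction and rounded, so the depth in reads is not given directly and no count model was used. The authors also deposited TPM to 1 decimal. The submitters' processing notes name CASAVA 1.8.2, HISAT2, DESeq2, edgeR and GRCm39. Whether counting used strand is not given in the sources used here.

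Scaled counts were rescaled by TMM (trims 0.3 and 0.05) and expressed as log2(CPM + 0.5), which understates changes of low genes. Genes with at least 10 scaled counts in at least 3 libraries of a comparison were tested with limma 3.58.1 (trend, robust) in R 4.3.3, two-sided, with Benjamini-Hochberg adjustment over all genes tested and a call at 0.05. The fits were tested on simulated data. Intervals are 95%. Across the 2 fractions, libraries that share a number deviated together from their group means, with correlations of 0.206 to 0.433 in Abca4Ko and 0.160 to 0.275 in control. Libraries of unlike number had −0.457 to 0.229 in Abca4Ko and −0.162 to −0.0077 in control, so in Abca4Ko the ranges overlapped. The numbers may therefore pair the fractions, which the titles do not state, and the main fits did not use them. With the replicate number as a block no call of the 10 genes changed. The genotypes are not paired by number. Other scalings, filters, offsets, log2(TPM + 1), a fit without trend, a fit of all libraries and leaving out each library were tried as alternatives. Python 3.11.15 with pandas 2.3.3 and matplotlib 3.10.9 did the rest. Promoter sequences and their coordinates are RefSeq's on GRCm38.p6, another build than the authors', and the tables themselves carry no coordinates.

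The 10 genes and the lists were chosen with earlier results of these data known. Genes named from the lists are, for rod TRAP against retina in control, those called with the highest and the lowest log2 fold changes (2 of each per list, or as many as were called), and any called by genotype or interaction, of which there were none. Genes like Hspa5 are the 5 of highest Pearson r. The motif search and the fit without both Abca4Ko libraries of replicate 3 in the fraction comparison were added after the data were seen.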

Additional observations from a re-analysis of the deposited data

How the results depend on the processing

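Over all alternatives 0 of the 10 genes were called by genotype (15 in each fraction) or in the interaction (21), 6 to 9 were called between fractions in control (15) and 4 to 7 in Abca4Ko (16, of which 1 was added after seeing the data). The highest count in control was without control retina replicate 3, with 7 higher and 2 lower. The lowest in Abca4Ko, 4, was reached without both libraries of replicate 3 and also without Abca4Ko retina replicate 2. With the replicate block, 7 of 10 genes were called between fractions in control and 5 of 10 in Abca4Ko. Between genotypes, which share only a number, the block gave 0 of 10, and over all genes 139 against 143 calls in rod TRAP and 46 against 18 in retina. Over all genes the genotype calls numbered 30 to 591 across the alternatives in rod TRAP, and 1 to 62 in retina, with none among the 10 genes.

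Signs turned for these log2 fold changes, and the cause was not tested. With the authors' scaling alone, rod TRAP against retina was −0.33 for Dnajb9 and −0.43 for Atf4 in control and −0.27 for Atf4 and −0.19 for Edem1 in Abca4Ko, and Edem1 by genotype in rod TRAP was −0.0014. With upper quartile factors, Edem1 by genotype was −0.012 in rod TRAP, Calr −0.078 and Pdia4 −0.0082 in retina, and Pdia4 0.074 in the interaction. In log2(TPM + 1), Dnajb9 by genotype was −0.051 in rod TRAP, Calr −0.015 in retina, Atf4 −0.11 between fractions in control and Edem1 0.13 in the interaction. In 1 fit of 12 libraries, Dnajb9 and Edem1 by genotype in rod TRAP were −0.0030 and −0.024. Leaving out 1 library at a time, genotype in rod TRAP ranged over −0.17 to 0.21 for Hsp90b1, −0.020 to 0.28 for Calr, −0.19 to 0.0069 for Canx, −0.064 to 0.12 for Dnajb9, −0.034 to 0.196 for Atf4, −0.026 to 0.196 for Ddit3 and −0.066 to 0.062 for Edem1. In retina it ranged over −0.15 to 0.12 for Calr, −0.021 to 0.14 for Pdia4, −0.096 to 0.11 for Xbp1 and −0.196 to 0.087 for Atf4. The interaction ranged over −0.028 to 0.25 for Calr, −0.11 to 0.052 for Pdia4 and −0.0078 to 0.26 for Atf4.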

Other observations

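The TPM and scaled count tables differed for Edem1. In rod TRAP its TPM was 4.6 to 7.2 in Abca4Ko and 3.9 to 4.2 in control, which did not overlap, while the log2 fold change of the scaled counts was 0.01. On the log2(TPM + 1) scale it was 0.45 (limma adjusted p = 0.622). For Ddit3 in retina, TPM was 104.6 to 116.3 in Abca4Ko and 119.9 to 163 in control, which did not overlap, while its scaled counts gave a log2 fold change of −0.12 with overlap. Neither passed the threshold in either table, and the cause was not tested.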
